A study of Arabidopsis thaliana with 12 samples.

Results

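In whole roots of Arabidopsis thaliana, 118 of 22746 probe sets had a signal that was low 3 h after transfer to sulfur-deficient medium and was back near its starting level at 24 h and 72 h. They were chosen from the measured values themselves, as differences of group means of log2(signal + 16). A probe set was taken if its mean signal was at least 100 in some group, its 3 h mean was lower than the 0 h mean by at least 0.8 with both 3 h arrays below both 0 h arrays, its 24 h difference from 0 h was above -0.4 and its 72 h difference lay within 0.4. The genes AT5G61590, CCL, ATL8 and AT4G27450 were left out by name, and none of these 4 met the limits on its values. Of the 118 probe sets, 64 were paired with 1 gene in the platform annotation, 2 with several genes and 52 were unlisted there. All 118 passed the filter on dim probe sets, and each was above the 40th percentile of its array on both 0 h arrays.

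The study had 12 one-colour arrays of total root RNA from the ecotype Columbia, 2 in each of 6 groups. All seedlings grew for 5 days on standard MS medium, a common plant growth medium. The 0 h group was then moved to fresh standard medium, and the other groups to medium deficient in sulfur for 3, 12, 24, 48 or 72 h. No genotype or agent other than the medium differed between the groups, and the sulfur-deficient medium held sucrose and agar. No later time had roots on standard medium, so sulfur deficiency, the transfer itself, seedling age and hour of harvest cannot be told apart. The labels number the replicates without naming separate cultures, so the spread behind the p-values may be that of technical repeats. In RNA from whole roots, fewer cells of a type and less RNA per cell cannot be told apart.

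Sulfate is taken up by the root and reduced to cysteine, and a short supply is known to raise sulfate transporters and assimilation enzymes and to lower processes that use sulfur. Messenger RNAs whose level drops within hours and then recovers are common in plant time courses. Short-lived messages often encode proteins of regulatory families. These include RING and F-box proteins, which mark other proteins for degradation, transcription factors and protein kinases. The lifetime of messages was not measured here.

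The arrays had the same scale, with medians of 80.8 to 88.0 and 2% trimmed means of 250.02 to 250.03. Within a group, log2 signals correlated across probe sets at 0.973 to 0.986. For the actin control, the 3' over 5' signal ratio ran from 2.38 to 3.44, with 3.12 and 3.44 on the 3 h arrays, and that of the ubiquitin control from 0.840 to 1.20. The highest ratio of both these controls was that of 3 h replicate 2. For the GAPDH control the ratio ran from 0.834 to 1.24, lowest on 3 h replicate 1 and highest on 12 h replicate 1. Of the root markers with a named probe set, the endodermis gene GSO1 had signals of 338 to 552 over the 12 arrays and the root tip gene AGL42 of 85.9 to 166. The root hair expansins EXPA7 and EXPA18 had a summed signal of 1244 and 1553 at 0 h, 723 and 368 at 3 h, and 578 to 935 on the later arrays. Neither was at 0 on any array, and neither differed between 48 h and 12 h past the threshold used here. The xylem genes IRX15 and IRX15-L had a summed signal of 273 and 283 at 0 h, 191 and 178 at 3 h, and 219.7 to 305 on the later arrays, so the 3 h arrays were the lowest. Whether control ratios or cell makeup had a part in the low 3 h signals was not tested.

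The 118 members were lower at 3 h than at 0 h by a factor of 1.74 to 5.55, with a median of 2.01, on the scale of log2(signal + 16). This follows from how they were chosen and is given with no test. The factor was at least 2 in 62 members and at least 3 in 7. The median log2 difference from 0 h was -1.01 at 3 h, -0.49 at 12 h, -0.18 at 24 h, -0.07 at 48 h and -0.07 at 72 h. Over all 14682 tested probe sets these medians lay between -0.02 and 0.01. The 0 h mean signals of the members ran from 99.9 to 7381. A probe set's brightness depends on its probes, so levels are compared between times and not between genes.

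Array by array, the median member stood at -0.08 and 0.08 against the 0 h mean on the 0 h arrays, at -0.89 and -1.19 at 3 h, and at -0.46 and -0.51 at 12 h. It stood at -0.25 and -0.08 at 24 h, at 0.04 and -0.18 at 48 h, and at -0.14 and -0.03 at 72 h. The 3 h arrays were the lowest and the 12 h arrays lay between them and the rest. Of the 3 h arrays, replicate 2 was the lower one. Without 3 h replicate 1, 223 probe sets met the rule, 113 of them among the 118, and without 3 h replicate 2, 98 did, 73 of them among the 118.

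**Figure D1:**
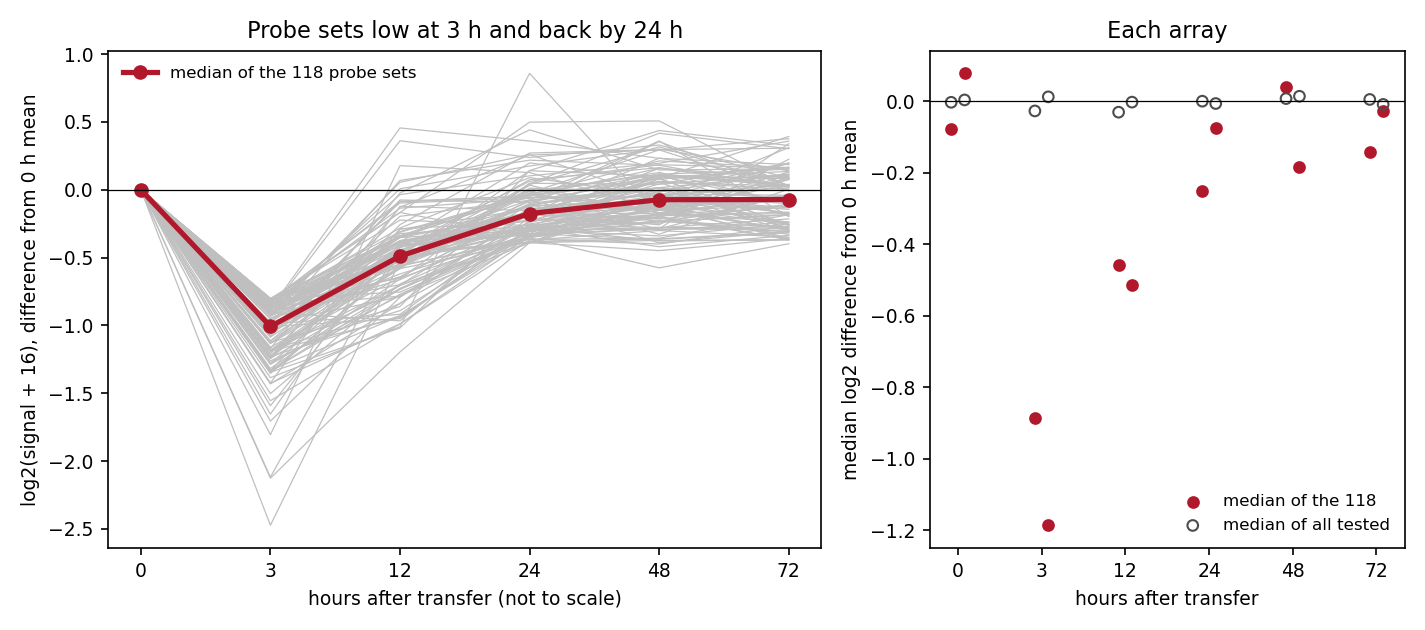
Left, the log2 difference of each of the 118 probe sets from its 0 h mean (grey lines, means of 2 arrays) against hours after transfer, with their median in red; right, the median of the members (filled) and of all 14682 tested probe sets (open) on each of the 12 arrays. The median of the members was -1.01 at 3 h and still -0.49 at 12 h, while that of all tested probe sets stayed near 0 on every array.

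The low values were not confined to 3 h. The rule set no limit on the 12 h difference, and the 12 h arrays could enter it only through the minimum signal. At 12 h, 76 of the 118 members (64.4%) were still at or below -0.4 against 0 h, compared with 12.8% of all tested probe sets. The difference was at or below -0.8 in 15 members, against 3.67% of all tested, and below 0 in 112, against 52.4%. Both 12 h arrays lay below both 0 h arrays in 89 members, against 25.7% of all tested. The 0 h arrays entered the rule, so no test is given for these counts. Members were chosen for 0 h values above those of 3 h, which favours low 12 h differences from 0 h. The counts are thus descriptions only. With these 12 h values, the members are described here as low at 3 h and back near the 0 h level by 24 h, and not as low at 3 h alone. Back here means that the limits of the rule were met, not that the 0 h level was reached. At 24 h, 94 members still had a mean below that of 0 h, against 7449 of all 14682 tested probe sets. Arrays of both times entered the rule, so this count too is a description only.

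Both 12 h arrays lay above both 3 h arrays in 101 members, against 20.0% of all tested probe sets. Members were chosen for low 3 h values, which favours such a count and the share regained, so both are descriptions and nothing is read from them. Of the log2 fall at 3 h, the median member had regained 53.7% by 12 h, with quartiles of 39.3% and 64.4%. In 46 members less than 50% was regained, and in 11 at least 90%. In 1 member, the unlisted probe set 258359_s_at, the 12 h mean was not above the 3 h mean. At 48 h, a difference that the rule set no limit on, 112 members lay within 0.4 of the 0 h mean. So did 12240 of all 14682 tested probe sets, so most probe sets lay there. At or below -0.4 lay 3 members, against 8.39% of all tested, and at or above 0.4 lay 3, against 1210 of all tested.

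Genes for wall-modifying enzymes and peroxidases made up the group with the lowest single value. This grouping by protein family was made after the values were seen and covers 39 of the 64 named genes in 9 groups. How common each family is among all tested probe sets was not counted, so the group sizes show no excess of any family. AT1G19900, which encodes a protein related to glyoxal oxidases, copper enzymes that release hydrogen peroxide, had signals of 481 and 658 at 0 h, 147 and 50.5 at 3 h, 373 and 398 at 12 h, 461 and 539 at 24 h, 618 and 375 at 48 h, and 366 and 729 at 72 h. The 3 h arrays were the lowest, the 12 h arrays also lay below both 0 h arrays, and the later arrays overlapped those of 0 h. Its 0 h level was 5.55 times the 3 h level on the log2(signal + 16) scale, and it had regained 78.6% of the log2 fall by 12 h.

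Class III peroxidases are secreted enzymes that crosslink or cleave wall polymers with hydrogen peroxide, and the members held a pair of them. AT2G39040 had signals of 305 and 308 at 0 h, 118 and 47.4 at 3 h, 359 and 339 at 12 h, 305 and 370.2 at 24 h, 286 and 265 at 48 h, and 268 and 423 at 72 h. Its 3 h arrays were the lowest, with replicate 2 below the 40th percentile of its array, and both 12 h arrays already lay above both 0 h arrays. For AT2G37130 the signals were 6317 and 8446 at 0 h, 4252 and 3087 at 3 h, 4371 and 3255 at 12 h, 5463 and 6619 at 24 h, 8160.5 and 5698 at 48 h, and 6019 and 7834 at 72 h. Here the 12 h arrays overlapped the 3 h arrays, and all 4 lay below every other array. AT2G37130 had regained 5.73% of its fall by 12 h, and AT2G39040 stood at 0.18 against 0 h at that time.

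Pectin is the gel-like polysaccharide of the primary wall. AT1G65570, of the polygalacturonase family that cuts pectin chains, had signals of 119 and 168 at 0 h, 48.6 and 43.7 at 3 h, 42.5 and 87.7 at 12 h, 106 and 158 at 24 h, 148 and 149 at 48 h, and 148 and 136 at 72 h. Its 12 h arrays stood apart, replicate 1 at the 3 h level and replicate 2 above it, and both lay below every array from 24 h on. AT1G02810, of the pectin methylesterase family, had signals of 387 and 469.8 at 0 h, 169 and 218 at 3 h, 445 and 367 at 12 h, 441 and 361 at 24 h, 435 and 486 at 48 h, and 488 and 419 at 72 h. Both of its 3 h arrays were the lowest, and the arrays of all other times overlapped. The pectate lyase family gene AT3G24670 stood at -0.83 at 3 h, -0.28 at 12 h and 0.09 at 24 h.

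EXLA1, an expansin-like gene from a family of wall-loosening proteins, was the single member on any of the 26 gene lists, that of the cell wall. The lists found genes by symbol or by a listed locus number, so they could miss members of a family. Its log2 difference from 0 h was -0.86 at 3 h, -0.65 at 12 h, -0.34 at 24 h and 0.31 at 72 h. Its 3 h and 12 h arrays overlapped and lay below all others. Over the 7 genes of this group the 12 h difference ran from -1.02 to 0.18, with a median of -0.53.

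RING and F-box proteins, parts of ubiquitin ligases, gave 5 members. AT1G72200, a RING protein of the ATL type that sits in membranes, had signals of 921 and 1097 at 0 h, 344 and 277 at 3 h, 855 and 783 at 12 h, 884 and 935 at 24 h, 1127 and 857 at 48 h, and 946 and 1009 at 72 h. Both 3 h arrays were far below all others, and the 12 h arrays lay just below those of 0 h. AT5G24870, another RING protein, had signals of 241 and 219 at 0 h, 108 and 98.5 at 3 h, 211 and 219 at 12 h, 204 and 241 at 24 h, 258 and 258 at 48 h, and 240.1 and 250.3 at 72 h. Its 12 h arrays lay at or just under the lower 0 h array, and both 48 h arrays lay above both 0 h arrays.

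AT1G24440, also a RING protein, had signals of 659 and 637 at 0 h, 374 and 255 at 3 h, 419.9 and 487 at 12 h, 575 and 706 at 24 h, 825 and 771 at 48 h, and 622 and 667 at 72 h. The 3 h arrays were the lowest, both 12 h arrays stood between those of 3 h and 0 h, and both 48 h arrays lay above both 0 h arrays. The F-box gene AT1G30200 stood at -1.26 at 3 h and -0.84 at 12 h. AT2G35910, of the ATL type too, stood at -0.84 and -0.39. None of the 21 tested genes on the list of ubiquitin ligases and proteolysis, which held no member, differed between 48 h and 12 h past the threshold (limma, 3 higher and 0 lower at an unadjusted p under 0.05).

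Among the 4 transcription factors, GT2 encodes a trihelix protein that binds light-responsive promoter elements. Its signals were 281 and 297 at 0 h, 120.4 and 106 at 3 h, 157 and 185 at 12 h, 236 and 216 at 24 h, 285 and 278 at 48 h, and 235 and 275 at 72 h. They were lowest at 3 h, higher on each pair of arrays at 12 h, 24 h and 48 h, and the 48 h arrays overlapped those of 0 h. AT1G32700, with a PLATZ-type zinc finger, had signals of 674 and 785 at 0 h, 318 and 241 at 3 h, 479.9 and 499.8 at 12 h, 556 and 853 at 24 h, 1186 and 741 at 48 h, and 654 and 613 at 72 h. Its 12 h arrays lay below both 0 h arrays and both 48 h arrays, and 48 h replicate 1 was the highest of all. The other PLATZ-type gene, AT1G21000, stood at -1.13 at 3 h and -0.58 at 12 h, and the basic helix-loop-helix gene AT1G05710 at -0.84 and -0.50. None of the 18 tested genes on the transcription factor list, which held no member, passed the threshold between 48 h and 12 h (limma, 2 higher and 0 lower at an unadjusted p under 0.05).

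Protein kinases gave 5 members. AT5G65530, a receptor-like cytoplasmic kinase, had signals of 380.3 and 459 at 0 h, 234 and 202 at 3 h, 440.4 and 400.1 at 12 h, 445 and 505 at 24 h, 528 and 508 at 48 h, and 429.8 and 496 at 72 h. Both 3 h arrays were the lowest, the 12 h arrays lay within the range of the 0 h arrays, and both 48 h arrays lay above it. AT2G41970, of the same class, stood at -0.81 at 3 h and -0.17 at 12 h. The AGC-type kinase AT1G03920 stood at -0.93 and -0.53, and the receptor-like kinase AT5G59700 at -0.80 and -0.34.

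AT2G37840, of the ATG1 type that starts autophagy, the recycling of cell contents, was the member with a second probe set. The member probe set stood at -0.80 at 3 h, -0.57 at 12 h and -0.07 at 48 h. The other probe set, 266081_at, stood at -0.60, -0.49 and 0.31, so both were lower than at 0 h at 3 h and 12 h, and they differed in sign at 48 h.

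Transferases, grouped here with an enzyme of the GH3 family, gave 6 members. AT1G48690, of the GH3 family of enzymes that join plant hormones to amino acids, had signals of 104 and 215 at 0 h, 38.2 and 47.9 at 3 h, 87.9 and 86.2 at 12 h, 126 and 119 at 24 h, 181 and 143 at 48 h, and 119 and 127 at 72 h. Both 3 h arrays lay below the 40th percentile of their arrays, so the size of this fall is uncertain, and all arrays from 24 h on lay within the wide range of the 0 h arrays. AT3G09020, of a glycosyltransferase family, had signals of 209 and 232 at 0 h, 102 and 58.6 at 3 h, 138 and 109 at 12 h, 173 and 165 at 24 h, 148 and 137 at 48 h, and 152 and 175 at 72 h. All later arrays of this gene lay below both 0 h arrays, and it had the lowest 48 h value among named members, -0.58.

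The UDP-glycosyltransferases UGT88A1 and UGT85A2, which attach sugars to small molecules, stood at -1.13 and -0.90 at 3 h and at -0.52 and -0.39 at 12 h. The BAHD acyltransferase genes AT5G47950 and AT2G40230 stood at -1.02 and -1.01 at 3 h. At 12 h they stood at -0.43 and -0.49, and at 48 h at -0.08 and -0.42. In this group the 12 h difference ran from -0.77 to -0.39, so every one of the 6 genes was lower at 12 h than at 0 h. So were 112 of the 118 members and 52.4% of all tested probe sets, so this is not particular to the group.

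Lipid-related genes gave 4 members. AT4G19860, a phospholipase related to lecithin:cholesterol acyltransferase, had signals of 1811 and 2320.2 at 0 h, 990.2 and 809 at 3 h, 1691 and 1207 at 12 h, 1502 and 1968 at 24 h, 2199 and 1609 at 48 h, and 1467 and 1717 at 72 h. The 3 h arrays were the lowest, and the 12 h arrays lay below both 0 h arrays but overlapped those of 24 h to 72 h. CP5, a gene for a START-domain protein of a lipid-binding family, had signals of 555 and 605 at 0 h, 323 and 303 at 3 h, 340.5 and 319 at 12 h, 388 and 587 at 24 h, 664 and 434 at 48 h, and 445 and 536 at 72 h. Its 12 h arrays overlapped its 3 h arrays, and it had regained 8.47% of the fall by then. The lipase-like gene AT5G18630 stood at -1.19 at 3 h and -0.74 at 12 h, and the ELO-type fatty acid elongase-like gene AT3G06460 at -1.11 and -0.32.

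The other enzymes included ALN, allantoinase, which opens the ring of allantoin in the breakdown of purines. Its signals were 283 and 324 at 0 h, 184 and 151 at 3 h, 191 and 157 at 12 h, 200.5 and 274 at 24 h, 312 and 225 at 48 h, and 278 and 307 at 72 h. The 12 h arrays overlapped the 3 h arrays, 6.05% of the fall was regained by 12 h, and the arrays of 24 h and 48 h spread widely. AT5G42250, an alcohol dehydrogenase-like gene, had signals of 869 and 1118 at 0 h, 648 and 475 at 3 h, 735 and 638 at 12 h, 874 and 987 at 24 h, 1171 and 935 at 48 h, and 965 and 1156 at 72 h. The 3 h and 12 h arrays overlapped below both 0 h arrays, and those of 24 h to 72 h overlapped 0 h. The aspartyl protease family gene AT4G16563 stood at -1.25 at 3 h, -0.13 at 12 h and 0.38 at 72 h. AT2G24580, of the sarcosine oxidase type, stood at -0.90 and -0.64 at 3 h and 12 h, and the serine carboxypeptidase-like gene SCPL34 at -0.80 and -0.49.

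SIM (SIAMESE) encodes an inhibitor of cyclin-dependent kinases, known for switching leaf hairs from division to repeated genome doubling. Its signals were 1275 and 1026 at 0 h, 618 and 552 at 3 h, 735 and 698 at 12 h, 821 and 1138 at 24 h, 1120.3 and 1070.1 at 48 h, and 1205 and 903 at 72 h. The 3 h arrays were the lowest, the 12 h arrays lay between them and all others, and the arrays of 24 h and 72 h ran from below to within the range of those at 0 h. None of the 5 tested genes on the cell cycle and histone list, which did not hold SIM's probe set, passed the threshold between 48 h and 12 h, or an unadjusted p of 0.05 with limma.

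AT3G07350 and AT3G22970 belong to a conserved plant family of unknown function. AT3G07350 had signals of 325 and 513 at 0 h, 78.2 and 84.4 at 3 h, 151 and 189.6 at 12 h, 274 and 346 at 24 h, 449 and 357 at 48 h, and 362 and 397 at 72 h. Its 3 h arrays were the lowest and nearly equal, its 12 h arrays lay between them and all others, and its 0 h arrays spread more widely than those of any later time. AT3G22970 had signals of 815 and 601 at 0 h, 305 and 241 at 3 h, 414 and 463 at 12 h, 656 and 799.7 at 24 h, 724 and 716 at 48 h, and 748 and 771 at 72 h. It showed the same order of 3 h, 12 h and the rest with no overlap between them.

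**Figure D2:**
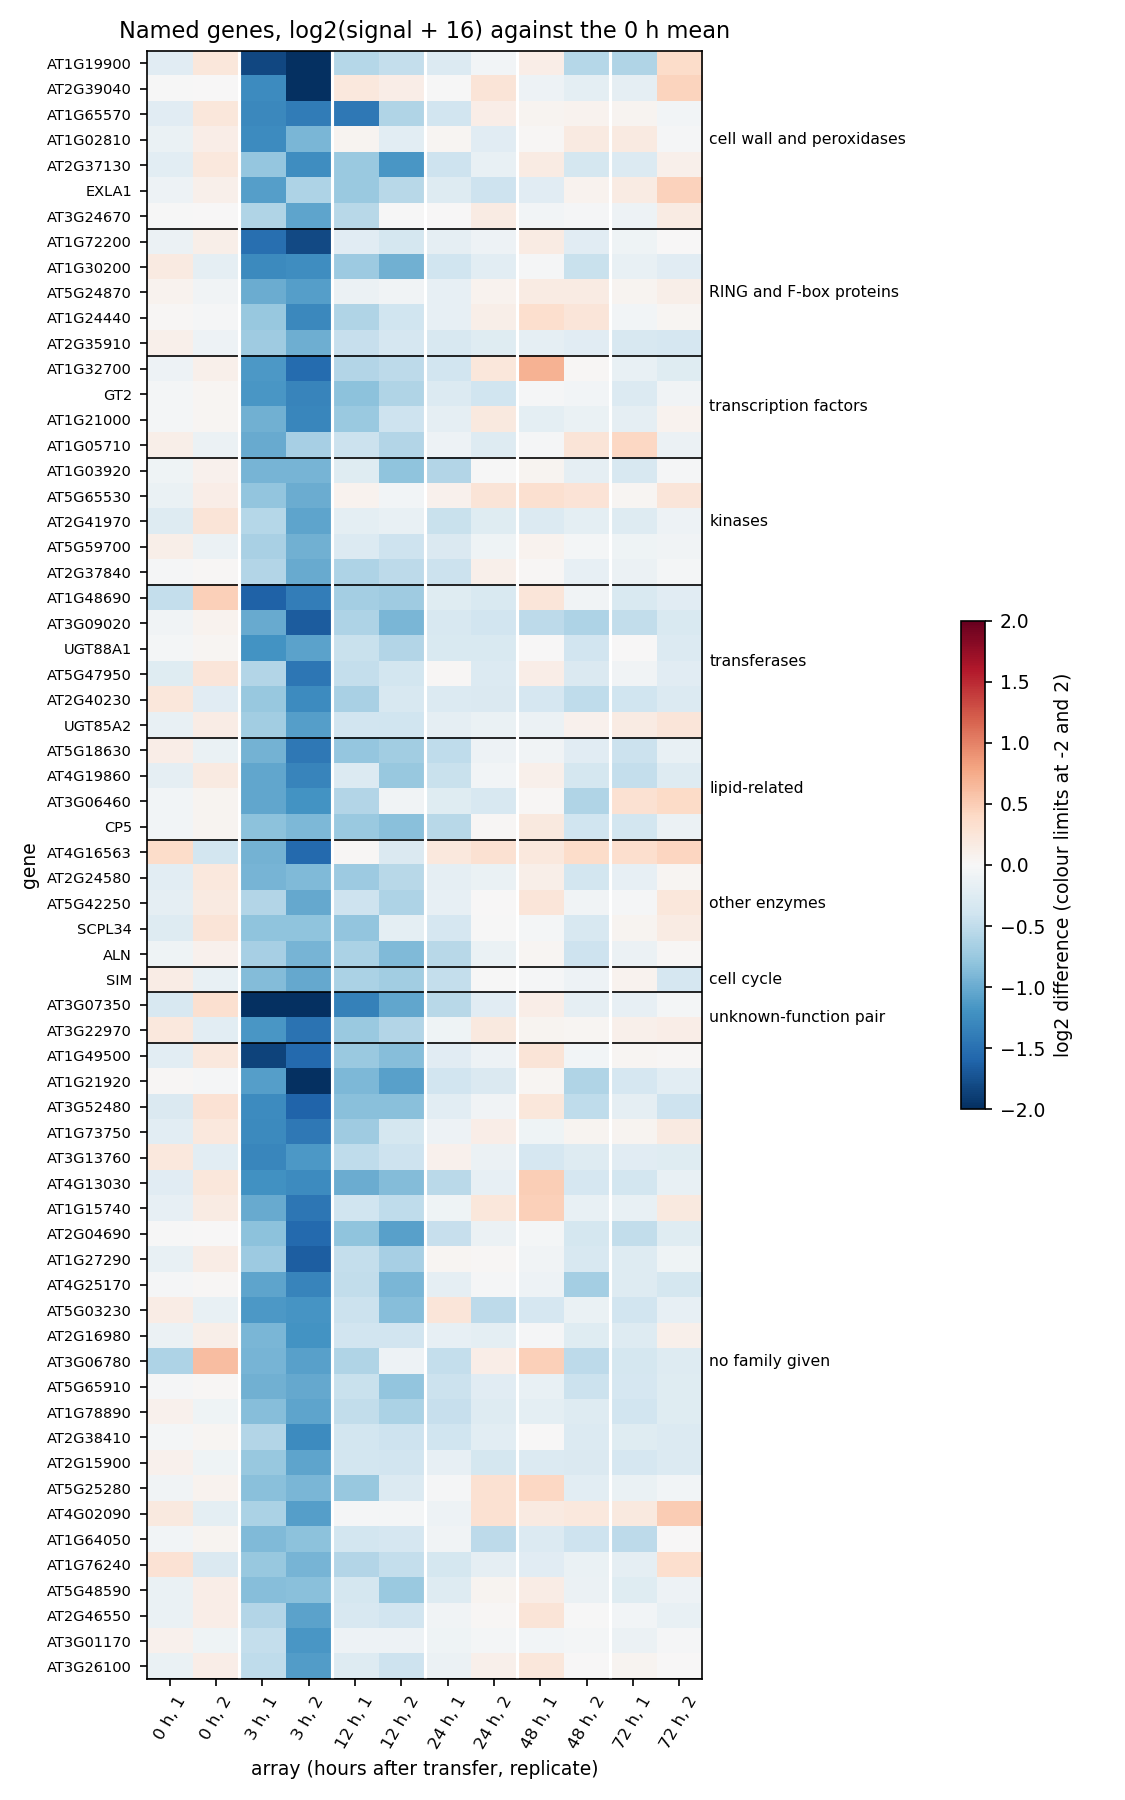
Colour gives the log2 difference of log2(signal + 16) from the 0 h mean for the 64 named genes (rows, grouped by protein family and ordered by the 3 h value) on each of the 12 arrays (columns). The 3 h columns are darkest, the 12 h columns are paler blue in most rows, and rows such as AT2G39040 and AT5G65530 are already near or above 0 at 12 h.

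For 25 named genes no family is given here. AT1G49500 had signals of 1879 and 2535 at 0 h, 591 and 732 at 3 h, 1299.5 and 1208 at 12 h, 1868 and 2024 at 24 h, 2607 and 2108 at 48 h, and 2241 and 2221 at 72 h. Its 3 h arrays were the lowest, and its 12 h arrays lay below every array of 0, 24, 48 and 72 h. AT1G21920 had signals of 1886 and 1819 at 0 h, 856 and 447 at 3 h, 987 and 868 at 12 h, 1409.8 and 1521 at 24 h, 1894 and 1222 at 48 h, and 1466 and 1594 at 72 h. Both 12 h arrays of this gene lay above those of 3 h and below all others.

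AT4G13030 had signals of 229.5 and 321 at 0 h, 109 and 105 at 3 h, 129 and 141 at 12 h, 183 and 241 at 24 h, 389 and 213 at 48 h, and 207 and 243 at 72 h. Its 12 h arrays lay just above those of 3 h and below all others, and 48 h replicate 1 was the highest of all. AT2G04690 stood at -1.19 at 3 h and -0.94 at 12 h, with 20.9% of the fall regained. AT3G52480 stood at -1.43 and -0.84, and AT1G73750 (dim, under the 40th percentile, on both 3 h arrays) at -1.35 and -0.53. AT1G15740 stood at -1.22 and -0.45.

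At the other end, AT4G02090 and AT3G01170 were close to their 0 h level at 12 h. AT4G02090 had signals of 388 and 295 at 0 h, 214 and 148 at 3 h, 332 and 328 at 12 h, 315 and 422 at 24 h, 385 and 395 at 48 h, and 392 and 490.5 at 72 h. Its 3 h arrays were the lowest and its 12 h arrays lay within the range of the 0 h arrays. AT3G01170 stood at -0.82 at 3 h and -0.10 at 12 h. At 48 h AT4G25170 and AT1G64050 were among the lowest, at -0.39 and -0.34. Of the 64 named genes, 22 lay on chromosome 1, which is 34.4% against 25.5% of tested probe sets with 1 gene.

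**Figure D3:**
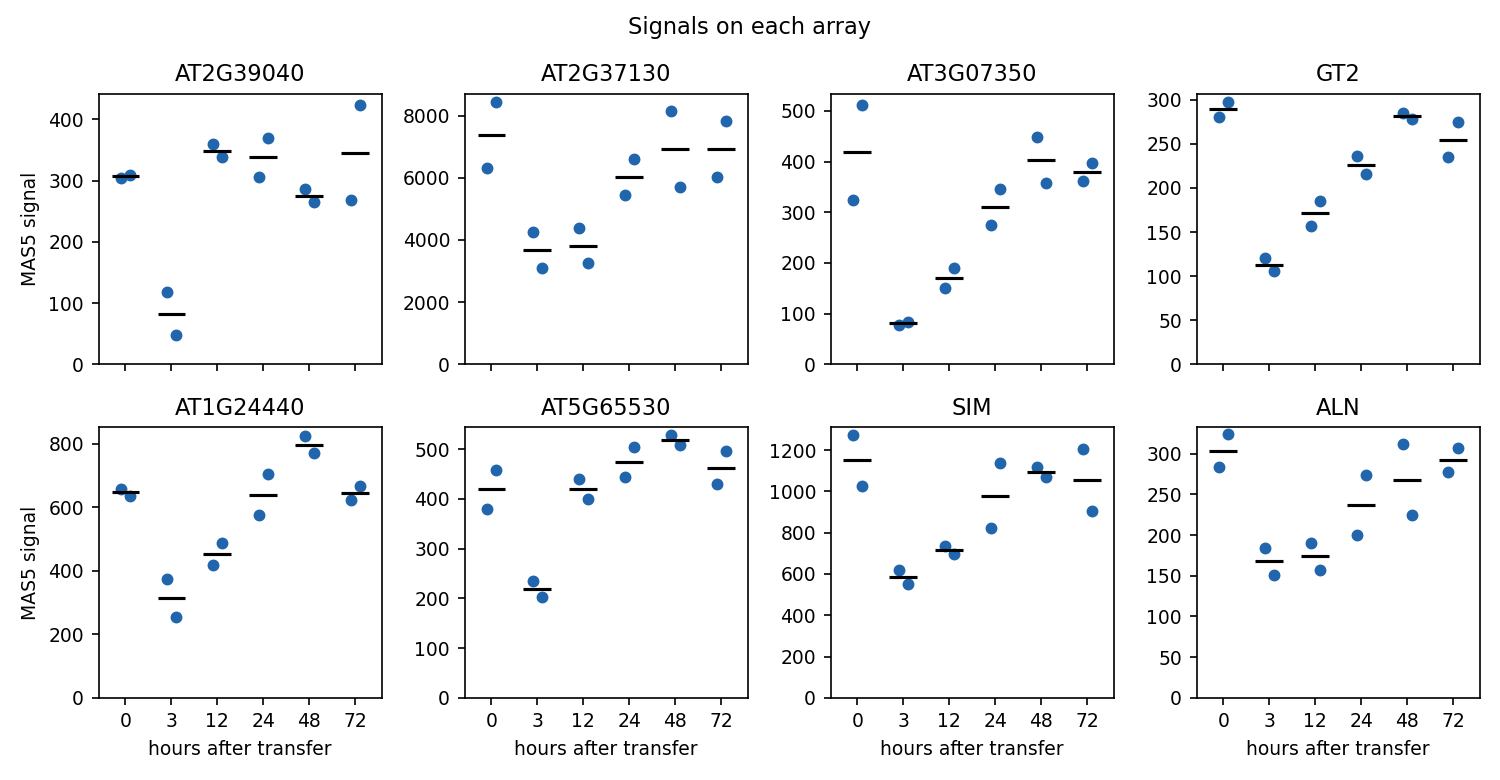
MAS5 signal (linear axis from 0) of 8 members on each of the 12 arrays against hours after transfer; points are arrays and bars the means of 2. AT2G39040 and AT5G65530 are back in the 0 h range or above it at 12 h, AT2G37130 and ALN are near their 3 h level at 12 h, and AT3G07350, GT2, AT1G24440 and SIM lie between.

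The unlisted members, 52 probe sets with no gene in the annotation used here, had medians of -0.997 at 3 h, -0.45 at 12 h and -0.06 at 48 h. The values below were picked after they were seen. Probe set 245148_at had signals of 1285 and 1345 at 0 h, 505 and 164 at 3 h, 1315 and 738 at 12 h, 1119 and 1389.9 at 24 h, 1281 and 849.8 at 48 h, and 1157 and 1501 at 72 h. Its 3 h arrays were the lowest and far apart, and its 12 h arrays differed from each other, one at the 0 h level. Probe set 251324_at had signals of 5919 and 8150.4 at 0 h, 3755 and 3140.4 at 3 h, 5205 and 4916 at 12 h, 5823 and 5644 at 24 h, 6120.5 and 5679.9 at 48 h, and 5818 and 7159 at 72 h. Its 3 h arrays were the lowest, both 12 h arrays lay between them and the 0 h arrays, and 48 h replicate 1 and 72 h replicate 2 lay within the 0 h range.

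Some unlisted members went past their 0 h level. Probe set 251109_at had signals of 1945 and 1802 at 0 h, 933 and 535 at 3 h, 1214 and 699 at 12 h, 3060.3 and 3792 at 24 h, 1773 and 1523 at 48 h, and 1922 and 2025 at 72 h. It was low at 3 h and 12 h, above every other array at 24 h, and near the 0 h level afterwards. Probe set 256968_at stood at -0.88 at 3 h and 0.46 at 12 h, the highest 12 h value among the members. Probe set 261576_at stood at 0.50 at 24 h and 0.51 at 48 h.

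The difference between 48 h and 12 h was the comparison whose size the rule did not use. The arrays of these times entered the rule only through the minimum signal, and AT5G59700, the member that met it by its 48 h mean alone, is not among those past the threshold. The spread in the fit, though, came from all 12 arrays, including those that the rule used. The p-values are thus not free of the selection. Of the 118 members, 7 were higher at 48 h and 0 were lower past an adjusted p of 0.05 with limma, fitted over all 12 arrays with Benjamini-Hochberg adjustment over 14682 probe sets. That is 5.93% of the members, against 0.722% of all tested probe sets higher and 0.606% lower, 1.33% in all. At an unadjusted p under 0.05, 52 members were higher, against 7.21% of all tested, and 0 were lower. The median log2 difference was 0.35 over the members, with quartiles of 0.21 and 0.61, and 0.03 over all tested. It was above 0 in 113 members, against 55.2% of all tested. Both 12 h arrays lay below both 48 h arrays in 87 members, against 25.3%, and above them in 4, against 18.7%.

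Of the 7, 4 were named genes. AT3G07350 had a log2 rise of 1.17 ± 0.21 (SE, adjusted p = 0.0122 with limma), from a signal of 170.3 ± 27.2 at 12 h to 403 ± 64.7 at 48 h (SD, n = 2 each). AT1G49500 rose by 0.90 ± 0.16 (SE, adjusted p = 0.0150), from 1254 ± 64.5 to 2358 ± 352. The RING gene AT1G24440 rose by 0.80 ± 0.17 (SE, adjusted p = 0.0386), and the trihelix gene GT2 by 0.67 ± 0.15 (SE, adjusted p = 0.0425). For all 4, both 12 h arrays lay above both 3 h arrays and below both 0 h arrays and both 48 h arrays. Taken singly, these orders held in 101, 89 and 87 of the 118 members, against 20.0%, 25.7% and 25.3% of all tested. Such orders add no support to any of the 7 calls.

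The other 3 were unlisted. Probe set 251084_at had signals of 173 and 235 at 0 h, 77.9 and 89.99 at 3 h, 95.9 and 112 at 12 h, 193 and 260.2 at 24 h, 323 and 240.1 at 48 h, and 248 and 266 at 72 h. Its 12 h arrays lay just above those of 3 h, and both 48 h arrays lay above both 0 h arrays. It rose by 1.30 ± 0.20 (SE, adjusted p = 0.00508 with limma). Probe set 258207_at rose by 1.04 ± 0.20 and 251169_at by 0.79 ± 0.16 (SE, adjusted p = 0.0187 and 0.0238), and in both the 12 h arrays were likewise above those of 3 h and below those of 0 h and 48 h.

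Several named members came close without passing. AT1G65570 stood at 1.08 ± 0.25, AT4G13030 at 1.01 ± 0.24 and AT1G32700 at 0.92 ± 0.23 (SE, adjusted p = 0.0553, 0.0555 and 0.0715 with limma). The 12 h signal of AT1G65570 was dim on replicate 1, so the size of its difference is uncertain. AT3G22970 stood at 0.70 ± 0.17 and the peroxidase AT2G37130 at 0.85 ± 0.22 (SE, adjusted p = 0.0656 and 0.0889). The peroxidase AT2G39040, already back at 12 h, stood at -0.32 (adjusted p = 0.714).

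The count of 7 varied with the arrays in the fit. Where 1 array was left in a group, it was assumed to vary like the other groups. The count dropped to 0 when 12 h replicate 1 or 48 h replicate 1 was left out and to 4 when 12 h replicate 2 was. It was 29 when the 12 h and 48 h arrays alone were fitted. In that fit 290 of all 14682 tested probe sets were higher at 48 h, so the number of calls rose over all probe sets too. Without 12 h replicate 1, AT3G07350 stood at 1.02 (adjusted p = 0.160), and without 48 h replicate 1 at 1.01 (adjusted p = 0.189). AT1G49500 lost its call in both cases, at 0.95 and 0.74, and also without 12 h replicate 2, at 0.84. AT1G24440 and GT2 did not pass when any single array from 12 h on was left out, with no filter, with no trend of the prior variance or with the replicate number as a block. GT2 also did not pass after quantile normalization.

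Green tissue genes had a low summed signal at 3 h and 12 h. The summed signal of the 8 named probe sets on that marker list, RCA, PSBY, PSAN, PSAE-1, PSBW, LHCB4.1, LHCB4.2 and LHCB4.3, was 1244 and 1443 on the 0 h arrays, 787 and 947 at 3 h, and 838 and 679 at 12 h. It was 1078 and 1353 at 24 h, 1518 and 1169.6 at 48 h, and 983 and 1304 at 72 h. The 3 h and 12 h arrays overlapped and lay below all others, so the sum was low at 12 h as well. Not all of the 8 were back near the 0 h mean at 72 h. PSAN stood at -1.56 against 0 h at 3 h and at -1.09 at 72 h, and LHCB4.2 at -1.58 and -0.61. The other 6 lay between -0.20 and 0.12 at 72 h. Between 48 h and 12 h, 2 of the 8 rose, PSBW by 0.96 and PSAE-1 by 1.17 (adjusted p = 0.0338 and 0.0495 with limma), and 0 fell. The lowest single signal on the list was 2.93, for LHCB4.2, and none was at 0. The lowest signal of PSAE-1, 32.4, was dim too, so the size of its rise is less certain. The part of green tissue in the members' values was not tested.

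**Figure D4:**
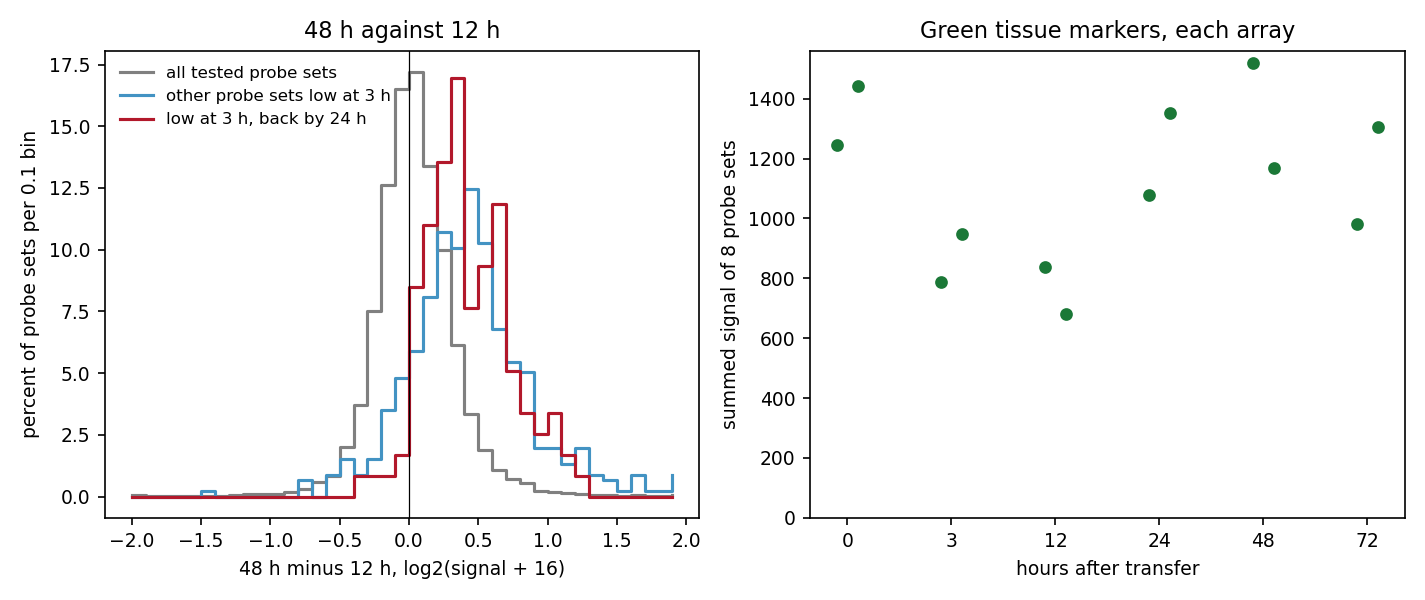
Left, the percent of probe sets in each bin of 0.1 of the log2 difference between 48 h and 12 h, for all 14682 tested probe sets (grey), the 457 other probe sets low at 3 h (blue) and the 118 members (red), with values beyond the axis in the outer bins; right, the summed signal of the 8 green tissue probe sets on each of the 12 arrays. The members' median was 0.35 against 0.03 for all tested, and the marker sum was lowest on the 3 h and 12 h arrays.

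The 26 gene lists held 1 member in all, EXLA1, and 18 had a tested gene. Genes known only by a locus number could be missed by the lists. The family groups above held 7 cell wall members and 5 RING and F-box members, where the matching lists held 1 and 0. The few members on the lists are thus no result about these families, and the lists cover them only in part. On the cell wall list, 0 of 34 tested genes differed between 48 h and 12 h past the threshold with limma in either direction, and 2 were higher and 1 lower at an unadjusted p under 0.05. On the list of low energy and sugar starvation genes, 0 of 6 did (4 higher and 0 lower at an unadjusted p under 0.05), with a median of -1.07 both at 3 h and at 12 h against 0 h. On the sulfur and glucosinolate list, 1 of 8 rose, the beta-glucosidase BGLU28 by 1.66, and 1 fell, the ATP sulfurylase APS4, which fell by 1.59. Apart from these and the green tissue genes, no tested gene on any list passed in that comparison.

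Another 457 probe sets were low at 3 h by the same limits and did not meet those for 24 h and 72 h. At 12 h, 430 of them (94.1%) stood at or below -0.4 against 0 h, compared with 64.4% of the members, and 304 (66.5%) at or below -0.8, compared with 12.7%. They had regained a median of 25.7% of the fall by 12 h, with quartiles of 7.47% and 39.6%. Between 48 h and 12 h, 35 of the 457 (7.66%) rose and 1 fell, with a median of 0.41. The members' share of 5.93% and median of 0.35 in that comparison were thus not above those of the other probe sets low at 3 h. These differences between the sets are given as descriptions and were not tested.

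Values lay close on both sides of each limit of the rule. Among named genes, just inside the 3 h limit lay AT2G37840 at -0.802, and just outside it AT5G48110 at -0.798. Nearest to the 24 h limit were AT3G07350 inside, at -0.390, and AT4G31450 outside, at -0.402. At 72 h these were AT3G09020 inside, 0.398 from the 0 h mean, and AT5G18130 outside, at 0.403. At the signal limit, AT5G59700 reached a mean of 100.9 and AT1G30260 one of 94.2. With a minimum signal of 50 or 200 in place of 100, 135 or 98 probe sets met the rule.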

How the data were processed

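Whole-root RNA was measured on 12 one-colour Affymetrix arrays. The authors deposited 1 linear intensity per probe set and array, computed with MAS5, per the submitters' processing notes. No version is given. MAS5 subtracts background and summarises probe pairs. The table has no detection calls. It held 22810 probe sets, 64 of them controls. The number of arrays limits the precision.

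Gene names came from the platform annotation, updated through a table of the TAIR10.1 assembly (13436 probe sets matched). Of the non-control probe sets, 13513 had 1 gene symbol, 503 several and 8730 none. Protein families are background knowledge and not taken from these files. Brightness below the 40th percentile of an array, a signal of 45.2 to 50.3, was read as dim. Non-control probe sets above it on at least 2 arrays were tested, 14682 in all. Log2(signal + 16), the scale of the selection rule, was fitted to group means over 12 arrays (limma 3.58.1, R 4.3.3), with 6 residual degrees of freedom, eBayes with trend and Benjamini-Hochberg adjustment. The fit was tested on simulated data.

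The members, gene lists and naming rule were chosen with earlier results of these data known. Genes were named by rule: the 12 lowest at 3 h, the 8 brightest at 0 h, the 6 lowest and 6 highest at 12 h, the 4 lowest and 4 highest at 48 h, those past the threshold, and those on a list. Others named with their family were chosen after their values were seen. Replicate numbers were not used to pair the arrays. Deviations from the group mean correlated at -0.26 to 0.22 over 15 pairs of groups. The 1 value above 0.1 was that of 0 h with 3 h. Low correlations cannot show that the arrays were unpaired. The alternatives were no offset, quantile normalization, other filters, no trend, a replicate block, a fit of 12 h and 48 h alone and the omission of each array in turn. The promoter motif search that had been planned was not run, and no sequence was used here.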

Additional observations from a re-analysis of the deposited data

How the results depend on the processing

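Of the summary values, 80 recomputed values kept their direction and stayed within a set limit of size, 15 moved and 1 reversed. For counts that limit was a factor of 1.5. Some of the 80 could not change. With 1 array left out, the 12 h and 48 h summaries of the members were recomputed over the same 118 probe sets. Only the omission of a 0 h array or of an array of their own time could alter them. Over all probe sets, 195 passed between 48 h and 12 h, against 103 with no filter, 477 with the 12 h and 48 h arrays alone, and 24 to 246 when 1 array was left out, lowest without 12 h replicate 1. Among the members 7 passed, 29 with those arrays alone and 0 to 12 when 1 array was left out. The number of members was 118, 145 with no offset (109 of them shared), 113 after quantile normalization (103 shared), and 98 to 223 when 1 array was left out. Without 0 h replicate 1, 124 probe sets met the rule, but only 76 of them were among the 118. Without 0 h replicate 2, 126 did, 73 of them among the 118. The median 12 h difference of the members was -0.49, and -0.55 to -0.44 when 1 array was left out. The median 48 h difference was -0.07, and -0.18 to 0.039 when 1 array was left out, reversing to 0.039 without 48 h replicate 2. The cause was not tested. With the replicate number as a block, which the labels do not name as a pairing, 168 probe sets and 6 members passed with limma. In that fit the calls of AT1G24440 (adjusted p = 0.0549) and GT2 (adjusted p = 0.0591) were lost. For the 4 named genes called, 48 recomputed values kept their call and 28 lost it, and none reversed. When 1 array was left out, their differences ran from 1.01 to 1.33 for AT3G07350, 0.74 to 1.05 for AT1G49500, 0.69 to 0.90 for AT1G24440 and 0.56 to 0.78 for GT2. With no detection calls, the depth of falls to dim signals at 3 h is uncertain.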
